A study of Citrus trifoliata and Citrus junos with 20 samples.

Results

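The comparison described here is that of roots of the alkali-sensitive rootstock trifoliate orange (Poncirus trifoliata, abbreviated Pt) at pH 8.0 with roots of the same rootstock at pH 6.5. It rests on 6 of the 18 small RNA libraries of the series, 3 from pH 8.0 and 3 from pH 6.5, and all 100 distinct miRNAs with listed values were followed, 49 known and 51 predicted. Seedlings of uniform size were moved to nutrient solution and kept for 8 weeks at pH 8.0, or at pH 6.5, which the study took as its normal condition, and each library came from the roots of 3 pooled seedlings. The other libraries of the series came from Pt at pH 9.5 and from the alkali-tolerant Ziyang xiangcheng (Citrus junos, Cj) under each of the same pH levels. The labels name no genetic change and no treatment other than the pH. Whether the 3 pools of a group grew in separate vessels is not stated, so the p-values measure the spread between these pools. The tables hold miRNAs alone and no tissue marker genes, so the root label could not be checked against the data.

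Plant miRNAs are cut from folded precursor hairpins by a Dicer-like enzyme, and the arm that is kept guides an Argonaute protein to messenger RNAs with a nearly complementary site. Bases 2 to 8 form the seed, which gives the start of the pairing. Several conserved families act in mineral nutrition: MIR399 lowers PHO2, a ubiquitin conjugase that limits phosphate uptake, and MIR398 lowers Cu/Zn superoxide dismutases. In alkaline solution iron and phosphate become less soluble. Others act on development, such as MIR171 on GRAS-type SCL transcription factors and MIR160 and MIR167 on auxin response factors.

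For this comparison the authors reported no differentially expressed miRNA in their own DESeq test. Why the edgeR test used here gave another result was not tested. At pH 8.0, 9 of the 96 tested miRNAs passed the edgeR test, which is 9.38% of those tested. They are the members on which the results turn. Their mature sequences are shown as the deposited tables list them, with the seed in capitals, first the 5 that were higher at pH 8.0 and then the 4 that were lower.
csi-miRN52: uGAGCUGUuuggcuauucucgc
csi-miRN50: aCAGGAGGuggaacaaauaugaaa
csi-miR399e: uGCCAAAGgagaauugcccug
csi-miR398: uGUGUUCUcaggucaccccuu
csi-miRN28: gGUCAUGCucugacagccucacu
csi-miR473: aCUCUCCCucaagggcuucgc
csi-miR477b: cUCUCCCUcaagggcuucucu
csi-miR479: uGUGAUAUugguucggcucauc
csi-miR171b: cGAGCCGAaucaauaucacuc
No 2 of the 9 share a seed. Of the 100 listed miRNAs, csi-miR399e alone among the 9 has a seed that others carry, namely csi-miR399a, csi-miR399b and csi-miR399d. The sequences of csi-miR473 and csi-miR477b share a run of 18 bases, which starts at base 2 of the one and base 1 of the other, so their seeds are shifted by 1 base. A first base of U was found in 4 of the 9 (44.4%), against 54 of the 96 tested (56.2%), and the 9 were between 21 and 24 bases long.

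The precursors tie some of these members together. The hairpin listed for csi-miR171b, 165 bases long, holds csi-miR479 at bases 45 to 66 and csi-miR171b at bases 122 to 142. These members, which both fell, thus lie on opposite arms of that listed hairpin. A hairpin of 147 bases is listed for csi-miR479 itself, and whether both hairpins are 1 precursor was not tested. From the hairpin listed for csi-miR171b, the stretch from one arm to the other is printed with both mature sequences in capitals. The 55 bases between them are in lower case.
csi-miR479 and csi-miR171b: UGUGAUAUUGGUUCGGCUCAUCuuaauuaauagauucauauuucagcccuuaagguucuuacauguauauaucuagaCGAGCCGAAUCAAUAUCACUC
The strongest-supported member, csi-miRN52, has 4 listed hairpins on chromosome 2, plus strand, of the Citrus sinensis genome used by the authors (release not given in the sources used here; positions as the table lists them). These are chr2:8711310-8711559, chr2:8711386-8711635, chr2:8737941-8738190 and chr2:8738017-8738266. They overlap in pairs, so the mature sequence has 2 positions, and the 130 bases from the mature sequence to its star strand are the same at all 4. That stretch is printed with the mature and the star sequence in capitals.
csi-miRN52: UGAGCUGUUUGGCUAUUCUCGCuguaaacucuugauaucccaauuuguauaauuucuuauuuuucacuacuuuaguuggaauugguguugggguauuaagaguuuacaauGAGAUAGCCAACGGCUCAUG
For csi-miRN50, listed at chr3:18988847-18989096 on the minus strand, only 13 bases lie between the mature sequence and the star, each in capitals.
csi-miRN50: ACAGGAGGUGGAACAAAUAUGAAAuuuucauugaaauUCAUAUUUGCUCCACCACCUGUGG
For csi-miRN28, listed at chr5:32493947-32494196 on the minus strand, the star comes first in the hairpin, and its first 20 bases are those of csi-miR167b. Counted from the 5′ end of the star and with its base first, it differs from csi-miR167b by A21U and by 1 further base at its end, so csi-miRN28 is read from the opposite arm of a MIR167 hairpin.
csi-miRN28: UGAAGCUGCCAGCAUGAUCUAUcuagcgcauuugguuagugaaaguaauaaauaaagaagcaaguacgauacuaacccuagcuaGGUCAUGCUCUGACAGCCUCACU
These positions lie on the genome of another citrus species than Pt, and the annotation of the genes around them was not used here.

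Depth differed between the libraries compared. The 3 pH 8.0 libraries held 77255, 690025 and 771522 reads of listed miRNAs, against 539710, 654737 and 623704 reads at pH 6.5. Replicate 1 at pH 8.0 was thus the shallow one, and its listed miRNAs made up 61.8% of the total behind the TPM values of the library, against 71.8% to 80.0% in the other 5. In it 27 of the 96 tested miRNAs had under 10 reads, against 11 to 14 in the others, and 3 reads stood for 38.96 CPM, against 4.73 to 6.44 CPM. CPM are read counts scaled to a common number of listed miRNA reads per library after TMM scaling, which trims the miRNAs that differ most between libraries. Across the tested miRNAs, log2(CPM + 1) correlated with r of 0.960 to 0.991 between libraries at pH 8.0, 0.982 to 0.993 at pH 6.5 and 0.962 to 0.987 between the groups, as a description over miRNAs of libraries that share their most abundant members. No 2 libraries agreed within sampling noise.

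At pH 8.0, 5 of the 96 tested miRNAs were higher (5.21%) and 4 were lower (4.17%) than at pH 6.5 at an adjusted p under 0.05 in edgeR's quasi-likelihood test, and 14 had an unadjusted p under 0.05. The median log2 fold change over all 96 was 0.10, and 75 of them lay within 0.5 of zero. The CPM of the libraries did not overlap between pH 8.0 and pH 6.5 for 15 miRNAs, 15.6% of those tested, with 6 above (6.25%) and 9 below (9.38%) at pH 8.0, and 8 of the 9 called members were among these 15. The number of lower members depended on the scaling. With library sizes from the totals behind the deposited TPM values, the split was 5 higher and 17 lower, and with library sizes taken without the 5 most abundant miRNAs it was 5 higher and 13 lower, with the median over all miRNAs shifted by -0.23 and -0.20 on the log2 scale. With TMM factors from the known miRNAs it was 4 higher and 6 lower, with near-identical sequences summed 4 and 10, and with a minimum count of 50 it was 4 and 5. The directions given for the called members were the same under every alternative that was run.

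**Figure D1:**
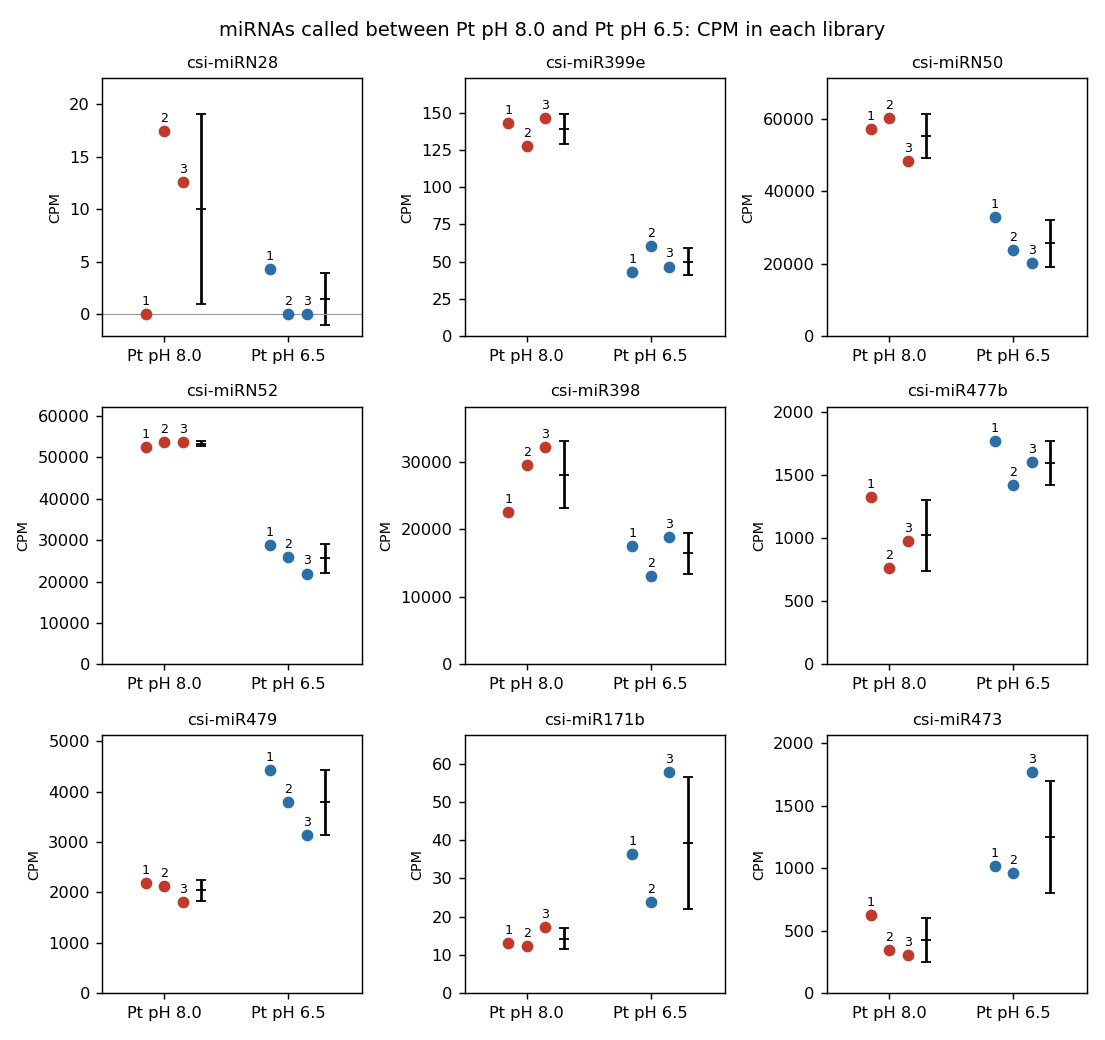
CPM (vertical axis, linear) of the 9 called miRNAs in each library of Pt pH 8.0 (red) and Pt pH 6.5 (blue), with the replicate number beside each point and the mean ± SD in black. The groups are apart in every panel but that of csi-miRN28, where replicate 1 at pH 8.0 had no read.

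The most abundant members that rose were predicted miRNAs. csi-miRN52, for which the tables give no family, had 52516, 53595 and 53643 CPM at pH 8.0, against 28934, 25896 and 21942 CPM at pH 6.5. All 3 pH 8.0 libraries stood above all 3 at pH 6.5, and the shallow library lay close to the other pH 8.0 libraries. Its log2 fold change was 1.06 (SE 0.15, adjusted p = 2.63e-05 in edgeR), or 2.08-fold. It took between 4.41% and 5.23% of the listed reads at pH 8.0, against 2.19% to 2.50% at pH 6.5.

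csi-miRN50, a 24-base sequence listed under the family MIR9560, had 57230, 60372 and 48431 CPM at pH 8.0, against 32943, 23668 and 20277 CPM at pH 6.5. The lowest library at pH 8.0 was above the highest at pH 6.5. The log2 fold change was 1.11 (SE 0.19, adjusted p = 0.000175 in edgeR). Among the 19 predicted miRNAs of 23 to 24 bases outside the other lists it was the only one called. Over all tested miRNAs 9.38% were called. The list had a median log2 fold change of 0.30, against 0.10 over all tested miRNAs, and both medians include the shallow library. In this list the groups overlapped for 18 of the 19 members, against 81 of all 96 tested miRNAs. Several of its members rest on few reads: csi-miRN04 had 3 reads at pH 8.0 and none at pH 6.5, which is too few for a fold change, and csi-miRN12 had 7 reads against 2. Relative to the scaled library sizes summed over each group, that ratio was 4.68, and its exact 95% interval ran from 0.892 to 46.2. The level of csi-miRN12 was 51.9 CPM in the shallow library and 3.49 and 1.58 CPM in the other pH 8.0 libraries.

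In the phosphate and sulfate list, csi-miR399e rose. It had 143, 127 and 146 CPM at pH 8.0, from 11, 73 and 93 reads, against 42.9, 60.1 and 46.7 CPM at pH 6.5. Every pH 8.0 library was above every pH 6.5 library, and the log2 fold change of 1.45 (SE 0.35, adjusted p = 0.00479 in edgeR) corresponds to 2.74-fold. The relatives with the same seed did not pass the test. csi-miR399b had 273, 168 and 140 CPM at pH 8.0, against 131, 109 and 106 CPM at pH 6.5, a log2 fold change of 0.61 with a 95% interval of -0.005 to 1.23 (adjusted p = 0.318 in edgeR), and its highest value was that of the shallow library. csi-miR399d averaged 405 ± 93.4 CPM at pH 8.0 and 367 ± 83.7 CPM at pH 6.5 (SD, n = 3 each), a log2 fold change of 0.09 with an interval of -0.43 to 0.61.

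These relatives differ by single bases, counted from the 5′ end of csi-miR399e, and are printed for comparison with the seed in capitals.
csi-miR399e: uGCCAAAGgagaauugcccug
csi-miR399b: uGCCAAAGgagaguugcccua
csi-miR399d: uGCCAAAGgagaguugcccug
The changes are A13G and G21A to csi-miR399b and A13G alone to csi-miR399d. Reads with a sequencing error or an altered end could therefore be counted under a neighbouring name, which was not tested. The CPM of the 4 MIR399 members together averaged 738 ± 162 at pH 8.0 and 532 ± 94.5 at pH 6.5 (SD, n = 3 each), a log2 ratio of 0.47. A refit with near-identical sequences summed, whose scaling moved the median over all miRNAs by -0.19, gave 0.23 for this sum (adjusted p = 0.761 in edgeR). Among the other members of the list, csi-miR827, which in Arabidopsis acts on SPX-domain genes of phosphate transport, had 10.7 ± 8.19 CPM at pH 8.0 and 13.2 ± 7.33 CPM at pH 6.5, and csi-miR395 and csi-miR399a had too few reads to be tested. csi-miR395, known for its action on sulfate assimilation, had 19 reads over the pH 8.0 libraries and 22 over those at pH 6.5, and csi-miR399a had 1 read and none. Thus 1 of 4 tested members rose, against 5.21% of all tested miRNAs, and none fell, with a median of 0.35. A single member is no result about the list.

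In the copper list, whose families lower copper-containing proteins and rise in many plants when copper is short, csi-miR398 rose. It had 22583, 29522 and 32144 CPM at pH 8.0, against 17462, 13026 and 18804 CPM at pH 6.5. The shallow library gave the lowest value at pH 8.0, and it was still above all 3 at pH 6.5. The log2 fold change was 0.77 (SE 0.19, adjusted p = 0.00479 in edgeR) and 0.95 without the shallow library. The laccase regulator csi-miR397 averaged 1439 ± 210 CPM at pH 8.0 and 1226 ± 179 CPM at pH 6.5, with a log2 fold change of 0.24 and an interval of -0.19 to 0.66. The plantacyanin regulator csi-miR408 averaged 18772 ± 623 CPM at pH 8.0 and 16986 ± 2930 CPM at pH 6.5, with a log2 fold change of 0.14 and an interval of -0.22 to 0.51 (SD, n = 3 each). The list had 1 of 3 members called, against 9.38% of all tested miRNAs, and a median of 0.24.

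Both members of the MIR477 family with more than 3 reads fell. csi-miR473 had 623, 346 and 306 CPM at pH 8.0, against 1020, 959 and 1768 CPM at pH 6.5. The shallow library held the highest value at pH 8.0 and replicate 3 the highest at pH 6.5, with no overlap. Its log2 fold change of -1.67 (SE 0.27, adjusted p = 5.68e-05 in edgeR) was 3.19-fold, the largest among the called members with 10 or more reads in each group.

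csi-miR477b had 1325, 766 and 977 CPM at pH 8.0, against 1765, 1419 and 1602 CPM at pH 6.5. The groups did not overlap, although the shallow library at pH 8.0 came near the lowest library at pH 6.5. The log2 fold change was -0.68 (SE 0.20, adjusted p = 0.0303 in edgeR), and the call was lost when any library other than the shallow one was left out. Since csi-miR473 and csi-miR477b share 18 bases, reads of altered length could fall under either name. Together they averaged 1447 ± 442 CPM at pH 8.0 and 2844 ± 499 CPM at pH 6.5 (SD, n = 3 each), a log2 ratio of -0.97, and the refit with summed sequences, with its median moved by -0.19, gave -1.20 (adjusted p = 0.000589 in edgeR). The third member, csi-miRN27, had no read at pH 8.0 and 1 read at pH 6.5, so the list median of -1.67 rests in part on a fitted value without reads behind it. The list had 2 of 3 members lower, against 4.17% of all tested miRNAs. As these 2 share 18 bases and may not be separate measurements, they are no result about the family.

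In the SCL list, named after the GRAS-type targets of MIR171, the members on both arms of the hairpin listed for csi-miR171b fell and no member rose. csi-miR479 had 2182, 2128 and 1800 CPM at pH 8.0, against 4430, 3798 and 3134 CPM at pH 6.5. All pH 8.0 libraries were below all pH 6.5 libraries, with a log2 fold change of -0.90 (SE 0.17, adjusted p = 0.000401 in edgeR), or 1.87-fold. From the opposite arm, csi-miR171b had 12.99, 12.2 and 17.3 CPM at pH 8.0, against 36.5, 23.7 and 57.9 CPM at pH 6.5. These values are 1, 7 and 11 reads at pH 8.0 and 17, 15 and 36 reads at pH 6.5, again without overlap. The log2 fold change of -1.41 (SE 0.44, adjusted p = 0.0417 in edgeR) was close to the threshold, and without the shallow library it was -1.36 with an adjusted p of 0.0866 in edgeR. The call was also lost without replicate 2 or replicate 3 at pH 8.0 and without replicate 3 at pH 6.5.

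The arms differed in abundance by more than their change. At pH 8.0 there were 2530 reads of csi-miR479 and 19 of csi-miR171b over the 3 libraries, against 6412 and 68 reads at pH 6.5. Whether the more abundant arm acts on SCL genes as MIR171 does was not tested. Another family member, csi-miR171a, had 273, 323 and 268 CPM at pH 8.0, against 329, 388 and 460 CPM at pH 6.5, which do not overlap, with a log2 fold change of -0.44 that did not pass the test (adjusted p = 0.350 in edgeR) but did under 3 of the alternatives. csi-miRN05 averaged 32.2 ± 12.9 CPM at pH 8.0 and 36.4 ± 13.8 CPM at pH 6.5 (SD, n = 3 each). The list had 2 of 4 members lower, against 4.17% of all tested miRNAs, and a median of -0.67. The 2 lower members lie on arms of 1 listed hairpin, and csi-miR171b had few reads. They are no result about the list.

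**Figure D2:**
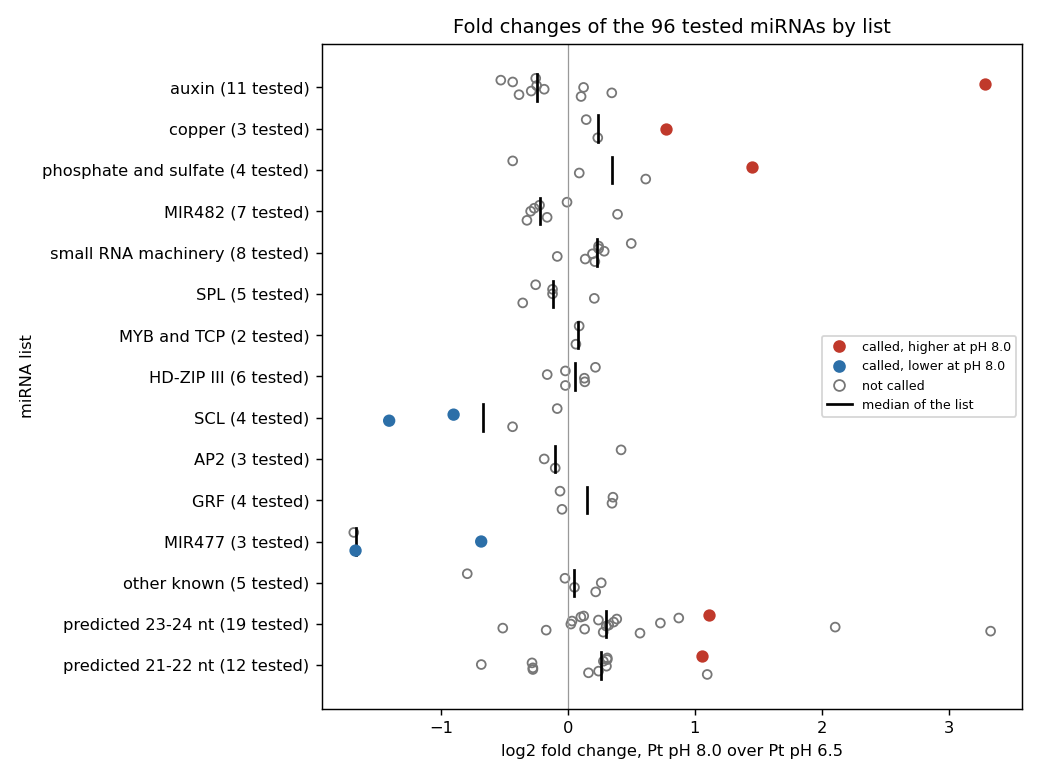
Log2 fold change (horizontal axis, Pt pH 8.0 over Pt pH 6.5) of each of the 96 tested miRNAs, in rows by list, with called members filled and the list median as a bar. The MIR477 and SCL lists hold the 4 lower members, and the 5 higher members stand in 5 other lists. The open points beyond 2 are csi-miRN12 and csi-miRN04, with 9 and 3 reads in all.

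Among the 11 auxin-related miRNAs, 1 rose and none fell, against 5.21% higher and 4.17% lower of all tested miRNAs. The median log2 fold change was -0.25, and 1 member is no result about the list. With library sizes from the TPM totals, 1 was higher and 3 were lower, against 5 higher and 17 lower of all 96 tested miRNAs. The member that rose was csi-miRN28, with 0, 17.5 and 12.6 CPM at pH 8.0, against 4.29, 0 and 0 CPM at pH 6.5. It is the opposite arm of a MIR167 hairpin, and whether it acts on auxin response factors was not tested. These values come from 0, 10 and 8 reads at pH 8.0 and from 2, 0 and 0 reads at pH 6.5, so the groups overlapped at zero. In the shallow library 1 read stood for 12.99 CPM, close to the level in the other pH 8.0 libraries, so its count of 0 says little about that level. The summed reads were set against the summed scaled library sizes of each group. Their ratio was then 12.04, with an exact 95% interval of 2.88 to 107 for counting error (adjusted p = 0.0334 in edgeR). Without replicate 1 at pH 6.5, which held both reads of that group, pH 6.5 had no read, and with 3 reads put in for that group the ratio was at least 5.85. The call was lost without replicate 2 or 3 of either group. In the fits on the 6 libraries of this comparison alone, csi-miRN28 had too few reads to be tested.

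The miRNA that matches the other arm, csi-miR167b, lay in the other direction. It had 3389, 4391 and 4485 CPM at pH 8.0, against 5087, 5709 and 5293 CPM at pH 6.5, with no overlap and with the shallow library lowest. The log2 fold change of -0.38 (interval -0.74 to -0.03) did not pass the test (adjusted p = 0.270 in edgeR), though it did under 4 of the alternatives. csi-miRN43, a MIR160 member, had 792, 859 and 912 CPM at pH 8.0, against 1162, 1395 and 1165 CPM at pH 6.5, also without overlap. Its log2 fold change of -0.53 had the smallest p outside the called members (adjusted p = 0.146 in edgeR), and it did pass under 5 of the alternatives, among them library sizes from the TPM totals, where the adjusted p was 0.00709. The related csi-miRN40 and csi-miRN45 had log2 fold changes of -0.43 and -0.25, and the 3 MIR160 members together had a log2 ratio of mean CPM of -0.36. In the refit with summed sequences, with its median moved by -0.19, their sum had -0.56 (adjusted p = 0.0720 in edgeR).

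The remaining auxin-related members overlapped between pH 8.0 and pH 6.5. csi-miR390, which starts the trans-acting siRNAs against auxin response factors, had 2299, 2230 and 2027 CPM at pH 8.0, against 2066, 1554 and 1530 CPM at pH 6.5, a log2 fold change of 0.35 with an interval of -0.05 to 0.74. csi-miR393, which acts on the TIR1/AFB auxin receptors, averaged 338 ± 90.0 CPM at pH 8.0 and 393 ± 120 CPM at pH 6.5. csi-miR164, which acts on NAC transcription factors, averaged 3299 ± 478 CPM at pH 8.0 and 3087 ± 662 CPM at pH 6.5 (SD, n = 3 each). The predicted csi-miRN09, csi-miRN18 and csi-miRN19 had log2 fold changes of -0.19, 0.12 and -0.25.

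None of the 7 members of the MIR482 list, regulators of NBS-LRR disease resistance genes, passed the test, and all 7 overlapped between the groups. Their log2 fold changes lay between -0.32 and 0.39, with a median of -0.22. csi-miR472, the member with the smallest p, had 11623, 16160 and 12761 CPM at pH 8.0, against 18120, 15378 and 17269 CPM at pH 6.5 (adjusted p = 0.318 in edgeR). Here the scaling mattered most: 4 of the 7 were called lower when library sizes came from the TPM totals, when the 5 most abundant miRNAs were left out of them, or when near-identical sequences were summed. Over all tested miRNAs 17, 13 and 10 were lower under these settings, with the median moved by -0.23, -0.20 and -0.19. The share of this list was larger than that over all tested miRNAs. The 4 calls came only under settings that moved the median over all miRNAs down, so they are no result about this list alone. The most abundant member, csi-miRN51, had 55282, 58382 and 47064 CPM at pH 8.0, against 68001, 44928 and 48532 CPM at pH 6.5, a log2 fold change of -0.01.

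The 5 miRNAs with the highest mean CPM over the 6 libraries, none of which was called, were csi-miR159, csi-miR166c, csi-miR166d, csi-miRN51 and csi-miR166a. At pH 8.0 alone csi-miRN50 and csi-miRN52, which rose, stood above csi-miR166a. csi-miR159, which acts on MYB transcription factors, took 34.6%, 37.4% and 38.9% of the listed reads at pH 8.0, against 37.2%, 40.4% and 36.5% at pH 6.5. Its log2 fold change was 0.06 with an interval of -0.22 to 0.34. The MIR166 members, which act on class III HD-ZIP transcription factors, gave log2 fold changes of 0.13 for csi-miR166c (75654 ± 12353 CPM at pH 8.0 and 69164 ± 6051 CPM at pH 6.5), -0.16 for csi-miR166d and -0.02 for csi-miR166a. csi-miR166a and csi-miR166e-3p, which share 21 bases, had 161650 and 161649 reads over the 6 libraries and equal counts in 5 of them. In the remaining library they differed by 1 read. They are thus not separate measurements, and the listed totals, on which the shares of reads rest, hold these reads under both names. None of the 6 members of this list was called.

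No member was called in the remaining lists either. The 8 miRNAs assigned to families that act on the small RNA machinery had a median log2 fold change of 0.23. Whether its predicted members act so was not tested, and csi-miRN14 and csi-miRN15 share 1 sequence. The members assigned to MIR168, csi-miRN02, csi-miRN14 and csi-miRN15, had 0.29, 0.24 and 0.24. Without the shallow library they had -0.16, -0.01 and -0.01, while the other members kept their signs. In this list csi-miRN17, assigned to MIR1515, did not overlap (96.8 CPM on average at pH 8.0 and 71.8 CPM at pH 6.5), with a log2 fold change of 0.50. The SPL list had a median of -0.12 over 5 members, which is the value of csi-miRN07 and csi-miRN08. These share 1 sequence and the same counts, so they are not separate measurements. Its member csi-miR156 is a regulator of SPL transcription factors and of the juvenile phase. csi-miR156 had 14025, 14519 and 14763 CPM at pH 8.0, against 19651, 17407 and 18371 CPM at pH 6.5. These values did not overlap, and the log2 fold change of -0.36 had an interval of -0.72 to 0.005 (adjusted p = 0.318 in edgeR). It was called lower with library sizes from the TPM totals (adjusted p = 0.00787 in edgeR) and without the 5 most abundant miRNAs (0.00908). The list then had 2 and 1 members lower, against 17 and 13 of all 96 tested miRNAs. The AP2, GRF and MYB and TCP lists had medians of -0.10, 0.15 and 0.08.

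Outside the functional lists, csi-miR530a had 64.9, 192 and 128 CPM at pH 8.0, against 200, 209 and 333 CPM at pH 6.5. The highest value at pH 8.0 was just below the lowest at pH 6.5, and the log2 fold change of -0.79 did not pass the test (adjusted p = 0.225 in edgeR). The predicted csi-miRN31 had 130, 61.1 and 115 CPM at pH 8.0, against 187, 149 and 122 CPM at pH 6.5, which overlap, with a log2 fold change of -0.68 (adjusted p = 0.298 in edgeR). Among the miRNAs with too few reads to be tested, csi-miR3953 had 1 read at pH 8.0 and 8 reads at pH 6.5. Relative to the scaled library sizes that is a ratio of 0.167 (exact 95% interval 0.00377 to 1.25). csi-miR530b had 9 and 6 reads.

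**Figure D3:**
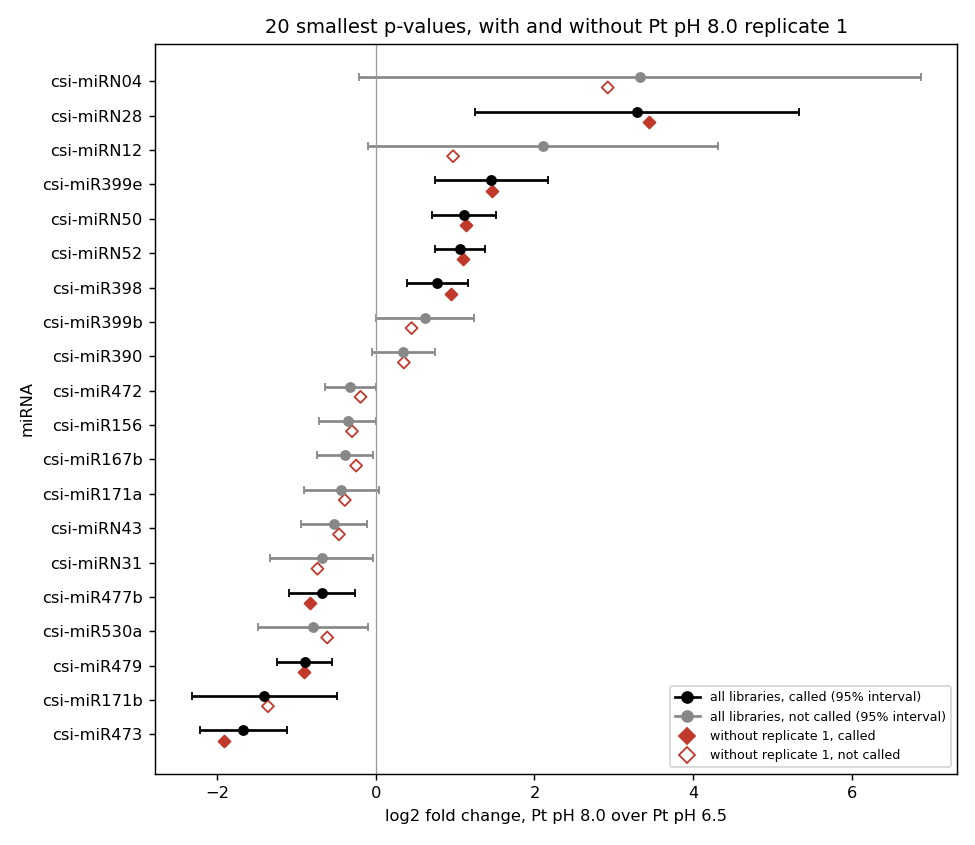
Log2 fold change (horizontal axis, Pt pH 8.0 over Pt pH 6.5) of the 20 miRNAs with the smallest p-values, as circles with 95% intervals for all libraries (black called, grey not called) and as diamonds without replicate 1 at pH 8.0 (filled called, open not called). Of the 9 called members 8 have filled diamonds, and the exception is csi-miR171b.

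Without replicate 1 at pH 8.0, the shallow library, 8 miRNAs were called, 5 higher and 3 lower, all of them among the 9, and 12 had an unadjusted p under 0.05. The log2 fold changes of csi-miRN52, csi-miRN50 and csi-miR399e were then 1.102, 1.13 and 1.46, and those of csi-miR473, csi-miR479 and csi-miR477b were -1.91, -0.91 and -0.83. Where other libraries were left out, between 6 and 8 were called. The members called under every alternative in which they were tested under their own name were csi-miRN52, csi-miRN50, csi-miR399e, csi-miR398, csi-miR473 and csi-miR479.

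The levels in Pt at pH 9.5 are given as a description, since a comparison with pH 6.5 would share those libraries with the results above. In order of rising pH, csi-miR479 averaged 3787, 2037 and 552 CPM, csi-miR473 averaged 1249, 425 and 111 CPM, and csi-miR477b averaged 1596, 1022 and 362 CPM. In each of these the level at pH 8.0 lay between the others. csi-miR399e averaged 49.9, 139 and 570 CPM, csi-miR398 averaged 16431, 28083 and 34444 CPM, and csi-miRN50 averaged 25629, 55344 and 69466 CPM. csi-miRN52 was the exception, with 25590 ± 3506, 53251 ± 637 and 37813 ± 8827 CPM (SD, n = 3 each), so that its highest mean was that of pH 8.0.

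Whether the response of Pt differed from that of the tolerant Cj was tested as a difference of log2 fold changes in the same model, and 10 of 96 miRNAs (10.4%) passed, with 25 at an unadjusted p under 0.05. Of the 9 members called in Pt, 3 were among them. csi-miRN52 rose in Pt by 1.06 and in Cj by 2.62 on the log2 scale, a difference of -1.57 (SE 0.22, adjusted p = 1.12e-05 in edgeR), and csi-miRN50 rose in Pt by 1.11 and in Cj by 2.14, a difference of -1.03 (SE 0.27, adjusted p = 0.0149 in edgeR). Without Cj pH 6.5 replicate 1 the difference for csi-miRN50 missed the threshold (adjusted p = 0.0522 in edgeR). csi-miRN52 and csi-miRN50 were already high in Pt at pH 6.5, where they averaged 25590 and 25629 CPM, against 3985 and 4393 CPM in Cj at pH 6.5. csi-miR479 fell in Pt, while its log2 fold change in Cj was 0.31 (adjusted p = 0.151), a difference of -1.21 (SE 0.24, adjusted p = 0.00127 in edgeR).

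**Figure D4:**
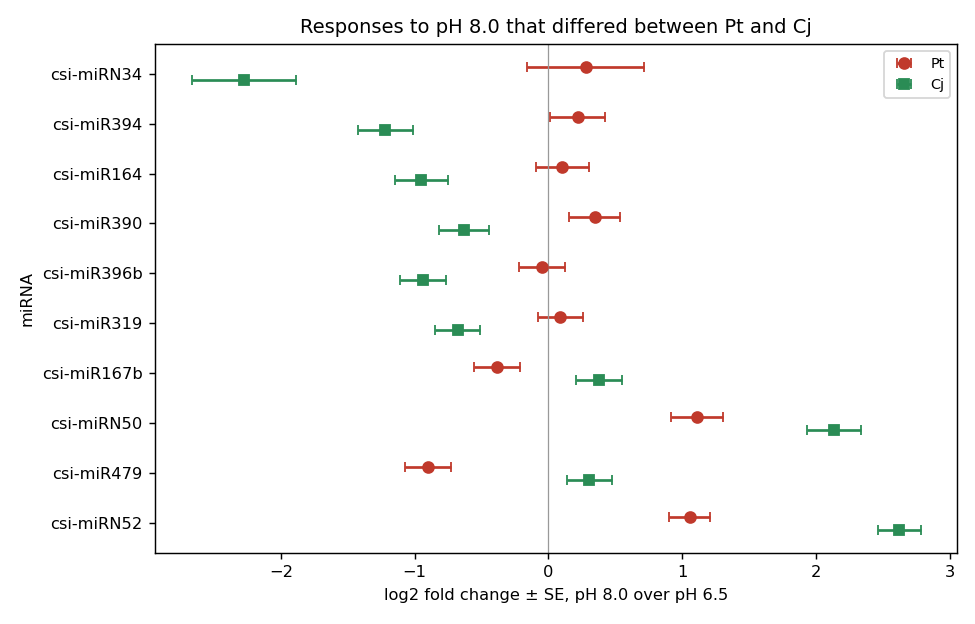
Log2 fold change ± SE (horizontal axis, pH 8.0 over pH 6.5) in Pt (red circles) and in Cj (green squares) for the 10 miRNAs whose responses differed. csi-miRN52 and csi-miRN50 lie right of zero in both rootstocks and further right in Cj, and csi-miR479 lies left of zero in Pt alone.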

How the data were processed

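Roots were sampled as pools of 3 seedlings, and small RNA libraries were sequenced. The authors removed structural RNA, mapped reads to the Citrus sinensis genome and predicted miRNAs with miRDeep2. The submitters' processing notes name Bowtie and DESeq 1.10.1. The deposited counts are whole reads per mature miRNA, without normalisation. The authors also gave TPM, here a count relative to a library total with no length term, from which only that total was taken. A deposited score per predicted precursor and the hairpin energies were not tested. Of 103 lines, 3 repeats of csi-miRN52 were dropped, leaving 100 miRNAs. A further line held no values and is not reported here. The 4 pairs of predicted miRNAs that share a sequence were kept as listed.

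Counts were fitted with edgeR 4.0.16 (R 4.3.3, quasi-likelihood, TMM) with 1 mean for each of the 6 groups over all 18 libraries. The low-count filter (minimum count 10, minimum total 15) left 96 miRNAs. Adjusted p (Benjamini-Hochberg over these 96) had to be under 0.05 for a call, with no fold threshold. Intervals of fold changes cover 95%. Ratios from 1 to 3 reads are relative to the TMM-scaled library sizes summed over each group and have exact intervals. These intervals and the floor of 3 reads cover counting error only. On simulated counts for this comparison (96 miRNAs, 20 of them changed, 20 draws), 80.9% of changes of 1 on the log2 scale and 97.45% of changes of 2 were called, with 1.0% of unchanged miRNAs. The simulated levels were means over all 18 libraries, so miRNAs scarce in Pt but not in Cj were simulated above their Pt level. The rates of called changes may thus be too high for Pt. The named miRNAs were those called, the next by p up to 20, the 5 most abundant, those whose responses differed between Pt and Cj, those whose call changed without the shallow library, and members of the MIR477, MIR482, copper, auxin and phosphate and sulfate lists. The members and lists were chosen with earlier results of these data known. csi-miRN02, csi-miRN05, csi-miRN07, csi-miRN08, csi-miRN14, csi-miRN15, csi-miRN17 and csi-miR3953 were named after their values were seen. Alternatives were other scalings, filters, tools, sets of libraries, summed sequences and a replicate block. The 2 degradome samples were not analysed here.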

Additional observations from a re-analysis of the deposited data

Results flagged for a closer look

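The responses to pH 8.0 differed between Pt and Cj for 10 miRNAs in edgeR, and each value is the log2 fold change in Pt minus that in Cj. The differences were -1.57 for csi-miRN52, -1.21 for csi-miR479 and -1.03 for csi-miRN50, as described above. For csi-miRN34 the difference was 2.55 (adjusted p = 0.00446), with log2 fold changes of 0.28 in Pt and -2.27 in Cj. csi-miR394, a regulator of an F-box gene, had a difference of 1.44 (0.22 in Pt and -1.22 in Cj), and csi-miR164 had 1.05 (0.10 in Pt and -0.95 in Cj). csi-miR390 had 0.98 (0.35 in Pt and -0.63 in Cj), csi-miR396b, which acts on growth-regulating factors, had 0.89 (-0.05 in Pt and -0.94 in Cj), and csi-miR319, which acts on TCP transcription factors, had 0.77 (0.09 in Pt and -0.68 in Cj). csi-miR167b had -0.76 (-0.38 in Pt and 0.38 in Cj). None of the 7 miRNAs other than csi-miRN52, csi-miRN50 and csi-miR479 was called in Pt itself. csi-miRN34, csi-miRN52, csi-miR394 and csi-miR479 passed under all 25 alternatives run, while csi-miR319 did not pass under 20 of them, csi-miR167b under 9, csi-miR390 under 6, csi-miR164 under 5, csi-miR396b under 3 and csi-miRN50 under 1. The difference for csi-miR167b was lost without Pt pH 8.0 replicate 1, the shallow library, among others. No library was tested as an outlier, since each group has 3.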

How the results depend on the processing

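For Pt pH 8.0 against Pt pH 6.5, with 9 called, the count was 22 with library sizes from the TPM totals, 18 without the 5 most abundant miRNAs and 14 with near-identical sequences summed, where the median over all miRNAs shifted by -0.19. It was 6 to 10 in the other alternatives, and 6 to 8 when 1 library was left out. edgeR or DESeq2 on the 6 libraries alone called 6. No direction reversed. Of the alternatives in which each was tested, csi-miR477b lost its call under 7 of 18, csi-miR171b under 8 of 19 and csi-miRN28 under 5 of 16. With edgeR or DESeq2 on the 6 libraries alone, and with a minimum count of 50, csi-miRN28 did not pass the low-count filter. csi-miRN28 ranged from 2.74 to 5.73 on the log2 scale, with 5.73 reached without Pt pH 6.5 replicate 1. Without the shallow library csi-miRN12 had 0.97, against 2.11 with it, and was called in neither case. For the difference in response, with 10 called, the count was 17 with the TPM totals, 16 without the 5 most abundant miRNAs, 17 where TMM used the known miRNAs alone, and 5 to 15 when 1 library was left out, the lowest without Cj pH 6.5 replicate 1. Without Pt pH 8.0 replicate 3 it was 6.

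The labels do not state whether the replicate numbers pair the libraries. Deviations of same-numbered Pt libraries correlated by 0.00, 0.09 and -0.19, which cannot decide this with 3 libraries in a group. With a replicate block 8 miRNAs were called in Pt and 15 in the difference in response. Depth limited the miRNAs with under 10 reads in the shallow library, and the total behind the scaling was not tested against an outside standard.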
